A study of Mus musculus with 48 samples.

Results

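Cysteamine at 250 uM was compared with vehicle in STHdhQ111 striatal progenitor cells, using the 3 cysteamine samples and the 3 vehicle samples, 6 of the 48 RNA-Seq samples of the series. Each change against vehicle was then asked for again in the 3 samples of nicotinamide (0.5 nM) and the 3 samples of nortriptyline (1 nM), which had been collected in the same day and time slots as cysteamine. All 12 samples were STHdhQ111 cells labelled as mutant and of C57BL/6 strain, held without serum for 24 hours while exposed to the compound or to vehicle, and polyadenylated RNA was sequenced. The STHdhQ111 cells are 1 immortalized mouse line that carries an expanded repeat in huntingtin, so results describe that line. The labels give the 3 samples of a group as collected on 3 different days. They do not say how the cultures were kept apart before that. The p-values therefore measure the spread between harvests, estimated over all 48 samples of the series, which include other compounds and STHdhQ7 cells.

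Cysteamine is a small aminothiol that depletes lysosomal cystine and is used as a drug in cystinosis. Thiol-reactive and oxidizing compounds can release the transcription factor NRF2 from its inhibitor KEAP1, and NRF2 then acts with small MAF proteins at antioxidant response elements of genes for glutathione, thioredoxin, NADPH and quinone metabolism. The aryl hydrocarbon receptor is a ligand-activated factor whose targets include Cyp1b1 and Tiparp, and it acts at xenobiotic response elements.

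The slots bear on every comparison with vehicle. Cysteamine, nicotinamide and nortriptyline were collected at time 3 of day 1, time 1 of day 2 and time 2 of day 3, whereas vehicle was collected at time 1 of day 1, time 2 of day 2 and time 3 of day 3. No vehicle sample shared a day and time with a cysteamine sample, so treatment and slot cannot be told apart in the comparison with vehicle. The values are log2 abundances as normalized by the authors, and depth per sample is unknown. In bulk RNA, fewer cells of a type and less RNA per cell cannot be told apart. Of 8 progenitor markers only 2 had a mean over all samples of at least 6, Vim at 15.42 and Sox9 at 9.38, and 1 had a mean under 1. Nes was at 5.51 and Sox2 at 5.11. Of 11 striatal neuron markers 6 had a mean under 1 and 2 a mean of at least 6, Foxp1 at 9.88 and Map2 at 8.37. Of 8 fibroblast and pericyte markers 5 had a mean of at least 6 and 2 a mean under 1. The matrix genes Col1a1 and Col1a2 of that list were at 14.52 and 12.70.

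Against vehicle, 1050 of 13409 tested genes were called at an adjusted p under 0.05 (limma, Benjamini-Hochberg), which is 7.83% of the genes. Of these, 312 were higher (2.33%) and 738 lower (5.5%) after cysteamine. Against nicotinamide only 9 genes were called (0.0671%), all of them higher after cysteamine, and against nortriptyline 7 were called (0.0522%), 6 higher (0.0447%) and 1 lower (0.00746%). At an unadjusted p under 0.05 there were 3082, 946 and 1009 genes. Against the mean of nicotinamide and nortriptyline, 16 genes were called (0.119%), 11 higher (0.082%) and 5 lower (0.0373%). The median absolute log2 fold change over all genes was 0.0778 against vehicle, 0.0494 against nicotinamide and 0.0504 against nortriptyline.

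**Figure D1:**
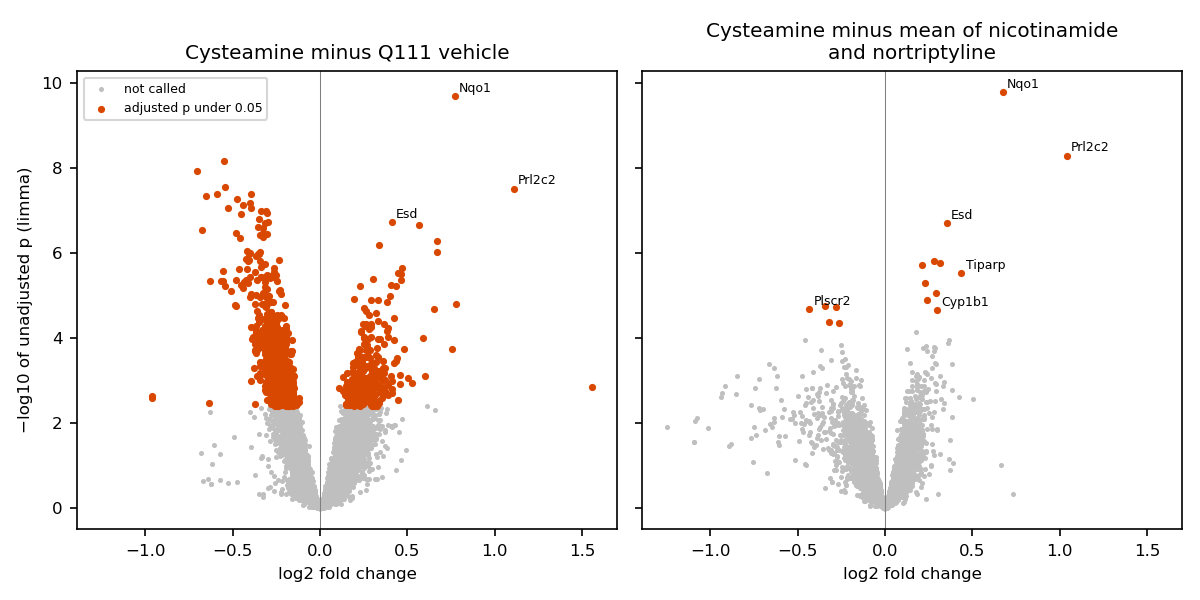
Each point is 1 of 13409 genes, with the log2 fold change on the x axis and −log10 of the unadjusted limma p on the y axis, for cysteamine minus Q111 vehicle (left) and cysteamine minus the mean of nicotinamide and nortriptyline (right). Orange points have an adjusted p under 0.05, 1050 on the left and 16 on the right, and Nqo1 is the highest point in both.

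The number called against vehicle depended on single libraries: it was 171 without vehicle replicate 1, 182 without cysteamine replicate 3, 401 without vehicle replicate 2 and 655 without cysteamine replicate 1. It was 831 without cysteamine replicate 2 and rose to 1561 without vehicle replicate 3. The counts also depended on which samples shared the estimate of the spread. With only the 12 samples in the fit, 1655 genes were called against vehicle and 45 against nicotinamide (24 higher and 21 lower). In that fit 47 were called against nortriptyline (27 higher and 20 lower) and 116 against the mean of nicotinamide and nortriptyline (61 higher and 55 lower).

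Most genes called against vehicle were not called against the slot partners. Of the 1050 genes, 9 were also called against nicotinamide, 5 against nortriptyline and 5 against both, and 841 (80.1%) had an unadjusted p of at least 0.05 against each. The 738 lower genes had a median log2 fold change of -0.242 against vehicle and -0.0266 against the mean of the slot partners. The same 738 genes had medians of -0.242 for nicotinamide minus vehicle and -0.20 for nortriptyline minus vehicle, 2 comparisons that use the same vehicle samples. The 312 higher genes had a median of 0.253 against vehicle and 0.0874 against the slot partners. The lower genes had a median longest transcript of 6478 bases, against 1868 for the higher genes and 3413 for all tested genes. Genes called for nicotinamide minus vehicle had medians of 6437.5 bases (lower) and 1792 (higher), and those for nortriptyline minus vehicle 6839 and 3059.5. The part of transcript length in the differences was not tested.

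Genes called against vehicle, with an unadjusted p of at least 0.05 against each slot partner and a mean of at least 6, were ranked by the size of the change. The 4 largest rises were in Nutf2-ps2/Nutf2-ps1, Ugt1a6a, a row shared by gamma protocadherin genes and Spp1, and the 4 largest falls in Pdpr, Lnpep, Lmbrd2 and Zfp871. Pdpr, which encodes the regulatory subunit of pyruvate dehydrogenase phosphatase, was at 8.22, 8.26 and 7.93 after cysteamine and between 8.66 and 9.0 in vehicle, while nicotinamide was at 8.28, 7.96 and 8.13 and nortriptyline at 8.22, 8.34 and 8.20. Its cysteamine samples lay below every vehicle sample and overlapped both slot partners, with a log2 fold change of -0.71 against vehicle (adjusted p = 5.3e-05, limma) and -0.05 against the mean of the partners. Lnpep, a membrane aminopeptidase, had -0.67 and -0.01, and Lmbrd2 -0.65 and -0.05 in the same comparisons. Among rises, the pseudogene row Nutf2-ps2/Nutf2-ps1 had 1.56 against vehicle and 0.67 against the mean of the partners, with cysteamine samples from 7.44 to 8.38 and vehicle samples from 5.98 to 7.01. Ugt1a6a, a glucuronosyltransferase, had 0.78 against vehicle and 0.17 against the mean of the partners, and Spp1, which encodes osteopontin, had 0.60 and 0.28. Htt itself was at 7.80, 7.71 and 7.66 after cysteamine and at 8.10, 8.10 and 7.92 in vehicle, a log2 fold change of -0.32 (adjusted p = 0.00857, limma). It was at 7.74, 7.64 and 7.69 with nicotinamide, where the log2 fold change of cysteamine was 0.04. With nortriptyline Htt was at 7.76, 7.93 and 7.78, and the log2 fold change of cysteamine was -0.10.

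The changes that held in all 3 comparisons were 5 rises and no fall (0.0373% of the genes): Nqo1, Prl2c2, Esd, Pparg and Gsta1/Gm3776. The absence of falls depended on the fit: with only the 12 samples in it, 15 rises and 2 falls held. Nqo1 encodes the NAD(P)H quinone dehydrogenase that reduces quinones. It was at 11.13, 10.89 and 11.16 after cysteamine, at 10.34, 10.26 and 10.27 in vehicle, at 10.29, 10.50 and 10.35 with nicotinamide and at 10.34, 10.49 and 10.34 with nortriptyline. All 3 cysteamine samples lay above the other 9, a pattern that 1.95% of all tested genes had. The log2 fold change was 0.77 (SE 0.09, adjusted p = 2.78e-06, limma) against vehicle, 0.68 (adjusted p = 2.95e-05) against nicotinamide and 0.67 (adjusted p = 8.84e-05) against nortriptyline. Nqo1 was called in all 21 alternatives against vehicle and in all 22 against each of nicotinamide and nortriptyline.

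Prl2c2, a prolactin family member also known as proliferin, was at 7.63, 7.56 and 7.49 after cysteamine and at 6.68, 6.00 and 6.67 in vehicle. It was at 6.44, 6.24 and 6.29 with nicotinamide and at 6.51, 6.84 and 6.79 with nortriptyline. The cysteamine samples did not overlap the other 9, and the log2 fold change was 1.11 (SE 0.16) against vehicle, 1.23 against nicotinamide and 0.85 against nortriptyline. The close paralogs Prl2c3/Prl2c4, listed as 1 row, had a log2 fold change of 0.76 against vehicle (adjusted p = 0.0082, limma) and 0.51 against the mean of the partners (adjusted p = 0.26), and reads of these near-identical genes could have been split between rows.

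Esd, an esterase that hydrolyses S-formylglutathione, was at 11.11, 11.10 and 11.22 after cysteamine and at 10.69, 10.73 and 10.78 in vehicle. Its log2 fold change was 0.41 against vehicle, 0.35 against nicotinamide and 0.36 against nortriptyline. Pparg, a nuclear receptor of lipid metabolism, was at 8.44, 8.48 and 8.42 after cysteamine and at 8.15, 8.26 and 8.12 in vehicle, with log2 fold changes of 0.27, 0.32 and 0.31. Gsta1/Gm3776, a glutathione transferase row that 2 gene names share, lay below the level set for naming and was chosen after its values were seen. It was at 2.23, 2.04 and 2.00 after cysteamine and at 1.75, 1.77 and 1.73 in vehicle. In each of these 3 genes every cysteamine sample lay above the other 9. Like Nqo1 and Prl2c2, these genes were chosen for being higher than those samples, so this is only a description. The other calls held less often than that of Nqo1. Against nortriptyline, Prl2c2 was called in 16 of 22 alternatives, Esd in 18 of 22, Pparg in 7 of 22 and Gsta1/Gm3776 in 6 of 21. Against nicotinamide the counts were 22 of 22, 17 of 22, 16 of 22 and 14 of 21 in the same order, and against vehicle 21 of 21, 21 of 21, 20 of 21 and 20 of 20. Leaving out single libraries ended some of these calls: without cysteamine replicate 1 or without nortriptyline replicate 1 or 3 only 1 gene was called in all 3 comparisons, and without any other single library 2 or 3 were.

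**Figure D2:**
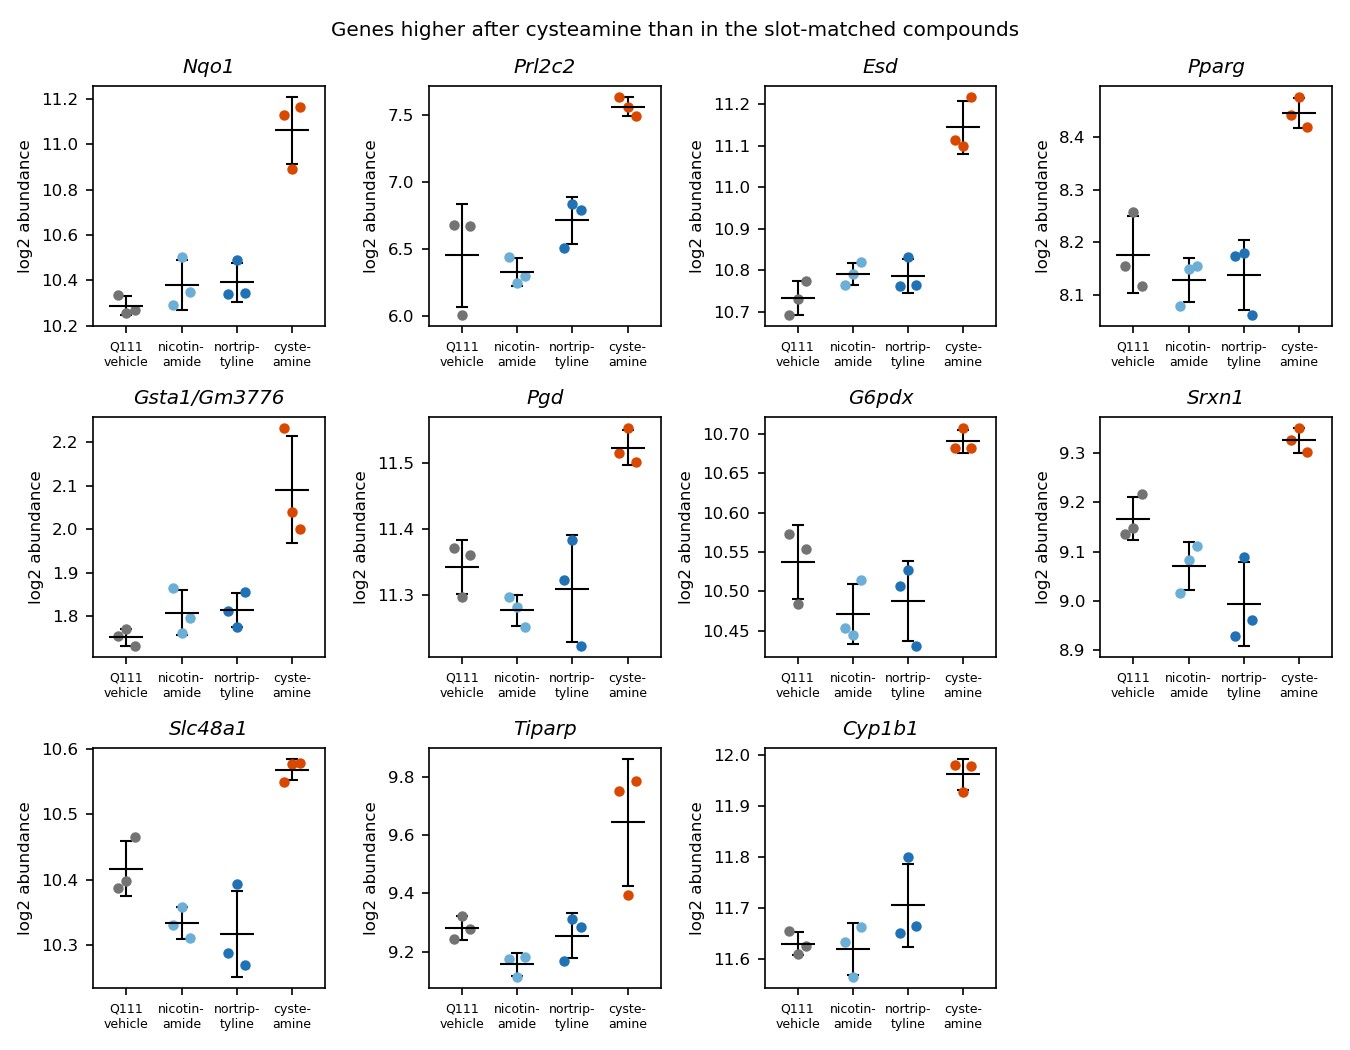
Log2 abundance (y axis, its range set per gene) of the 11 genes higher after cysteamine than in the mean of nicotinamide and nortriptyline. Points are samples, the horizontal line is the mean and the bar the SD of 3 samples, and the cysteamine samples lie above the other 9 in each. The genes were chosen for being higher than 6 of those 9 samples, so this is a description, and 1.95% of all tested genes have it.

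Of the 11 genes higher than the mean of the slot partners, 6 were not called in all 3 comparisons, and they were chosen for description after their values were seen. Pgd and G6pdx, which encode the NADPH-producing enzymes of the pentose phosphate pathway, had log2 fold changes of 0.23 (adjusted p = 0.00868, limma) and 0.21 (adjusted p = 0.00441). G6pdx was at 10.68, 10.71 and 10.68 after cysteamine, at 10.57, 10.48 and 10.55 in vehicle, at 10.45, 10.44 and 10.51 with nicotinamide and at 10.51, 10.53 and 10.43 with nortriptyline. Srxn1, which encodes sulfiredoxin and repairs oxidized peroxiredoxins, had 0.29 (adjusted p = 0.0131), and Slc48a1, a haem transporter, 0.24. Against vehicle Srxn1 had 0.16 (adjusted p = 0.133) and Slc48a1 0.15 (adjusted p = 0.088), which did not pass.

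Tiparp and Cyp1b1 are targets of the aryl hydrocarbon receptor. Tiparp, an ADP-ribosyltransferase, was at 9.75, 9.39 and 9.79 after cysteamine and between 9.11 and 9.32 in the other 9 samples. Its log2 fold change was 0.44 against the mean of the slot partners (adjusted p = 0.0057, limma) and 0.36 against vehicle (adjusted p = 0.012). Cyp1b1, a cytochrome P450, had 0.30 and 0.33 in the same comparisons. The receptor gene Ahr had -0.09 and 0.05, its repressor Ahrr 0.05 and 0.08, and neither was called. Aldh3a1, an aldehyde dehydrogenase of the same battery, had 0.47 against vehicle (adjusted p = 0.00075) and 0.29 against the mean of the partners (adjusted p = 0.14). Aldh3a1 and Ahrr had low means over all samples, 2.57 and 2.03. Also looked up were Ugt1a6a, with 0.78 against vehicle and 0.17 against the partners (adjusted p = 0.00192 and 0.802, limma), and Cyp1a1. The mean of Cyp1a1 was too low for it to be tested.

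The 5 genes lower than the mean of the slot partners were Loxl3, Agap2/LOC105242480, Plscr2, Trafd1 and H2-Q1, and none was called against vehicle. Trafd1, a negative regulator of innate immune signalling, was at 9.66, 9.71 and 9.47 after cysteamine and at 9.63, 9.55 and 9.62 in vehicle, and at 9.88, 9.93 and 9.91 with nicotinamide. Its cysteamine samples overlapped vehicle and lay below both slot partners. H2-Q1, a class I histocompatibility gene, had a log2 fold change of -0.26 against the partners and -0.14 against vehicle.

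Of 34 NRF2 response genes, all of them tested, 15 rose and none fell against vehicle, where 2.33% of all tested genes were called higher, and 4 rose against the mean of the slot partners, where 0.082% were. The median log2 fold change was 0.188 in both comparisons, beside medians over all genes of 0.00347 and -0.00128. In 19 of the 34 the 3 cysteamine samples lay above all 9 other samples, a pattern that 1.95% of all tested genes had. The median of the same genes was 0.0157 for nicotinamide minus vehicle and 0.00307 for nortriptyline minus vehicle. The mean level of the list was between 10.21 and 10.25 in the cysteamine samples, between 10.00 and 10.06 in vehicle, between 10.03 and 10.05 with nicotinamide and between 9.98 and 10.06 with nortriptyline.

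Among the regulators, Nfe2l2, which encodes NRF2, had a log2 fold change of 0.21 in both comparisons (adjusted p = 0.0968 and 0.296, limma), and Keap1 had 0.02 in both. Genes of glutathione supply did not pass in either comparison. Gclc and Gclm, the subunits of the rate-limiting enzyme, had 0.14 and -0.03 against vehicle, and the cystine transporter Slc7a11 had -0.17 with an SE of 0.23. Against the mean of the slot partners Gclc, Gclm and Slc7a11 had 0.21, 0.09 and -0.01 (adjusted p = 0.255, 0.902 and 0.997, limma). Of the iron storage genes, Fth1 rose by 0.33 and Ftl1/LOC100862446 by 0.30 against vehicle, and they had 0.27 and 0.29 against the slot partners (adjusted p = 0.115 and 0.0931). Of the conjugating enzymes, Gsta4 rose by 0.67 against vehicle where nicotinamide and nortriptyline minus vehicle had 0.39 and 0.27, and Mgst1 rose by 0.37 against vehicle with 0.37 against the slot partners (adjusted p = 0.0798). The haem oxygenase gene Hmox1 had 0.35 (adjusted p = 0.0531) against vehicle.

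**Figure D3:**
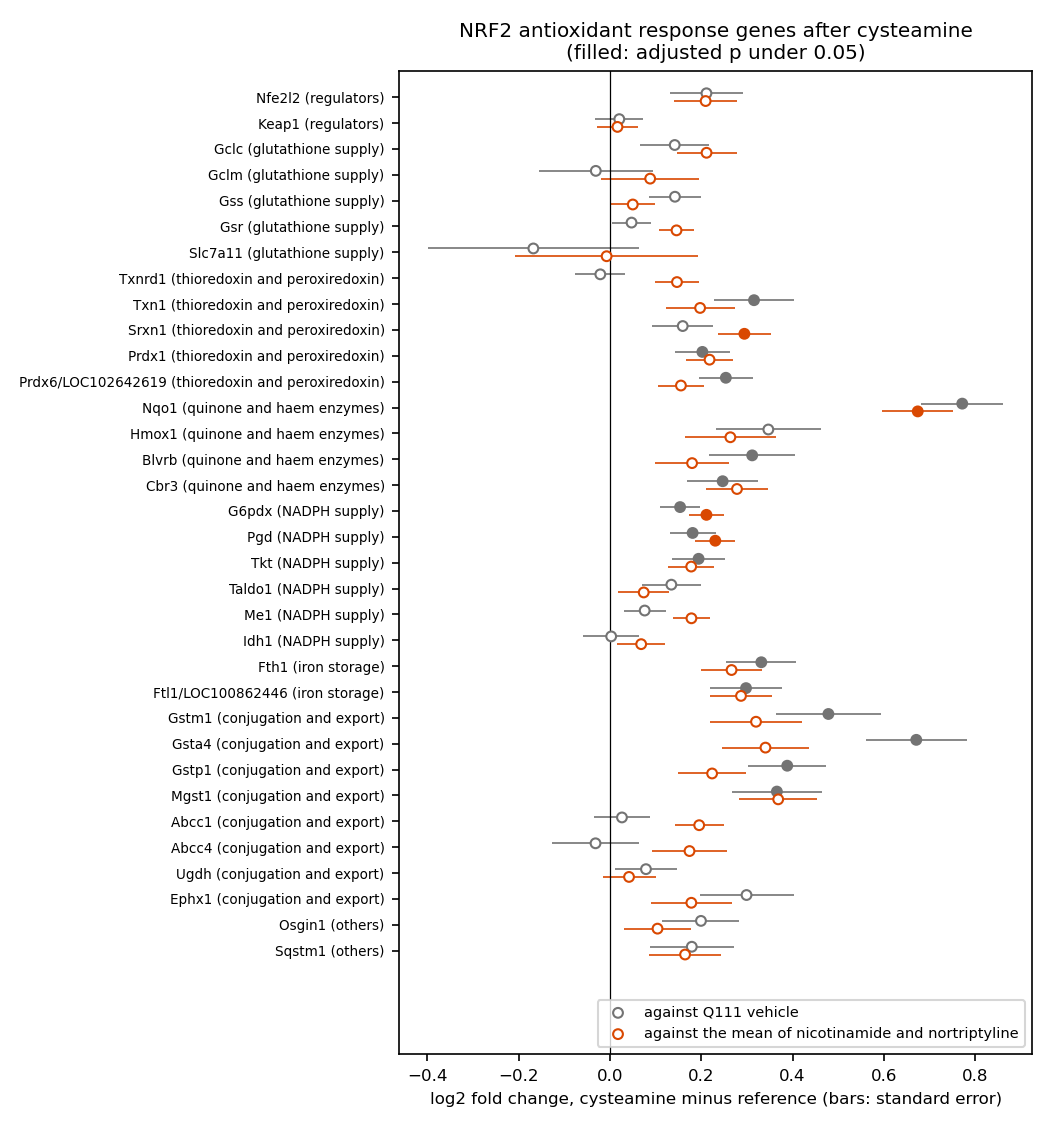
Log2 fold change (x axis) of 34 NRF2 response genes, grouped by role, for cysteamine minus Q111 vehicle (grey) and cysteamine minus the mean of nicotinamide and nortriptyline (orange), with the standard error as a bar. Filled points have an adjusted p under 0.05, 15 in grey and 4 in orange, and 33 of the 34 orange points lie above 0.

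Promoter windows, the 250 bases before the gene start in RefSeq (GRCm38.p6), were read for 9 of the 11 higher genes, some of which have several starts, and 4 windows are shown because these genes lead the NRF2 group. Capitals mark letters of an antioxidant response element core (TGACNNNGC, G6pdx), an NRF2 and small MAF form (TGANTCAGC, Srxn1) or a xenobiotic response element core (TNGCGTG, Pgd), searched on both strands, and the first 2 forms can overlap. The first and last forms were chosen after the genes were known. The form TGANTCAGC was added later, after the Srxn1 window had been read and held no TGACNNNGC, so its match in Srxn1 is not a finding. The Nqo1 window held none of the 3.
Nqo1, chr8:107403206-107403455, minus strand: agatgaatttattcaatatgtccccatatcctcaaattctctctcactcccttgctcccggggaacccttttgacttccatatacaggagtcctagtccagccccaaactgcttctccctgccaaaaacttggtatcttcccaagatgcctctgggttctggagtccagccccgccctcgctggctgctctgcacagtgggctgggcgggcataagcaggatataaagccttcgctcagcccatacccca
G6pdx, chrX:74428881-74429130, minus strand: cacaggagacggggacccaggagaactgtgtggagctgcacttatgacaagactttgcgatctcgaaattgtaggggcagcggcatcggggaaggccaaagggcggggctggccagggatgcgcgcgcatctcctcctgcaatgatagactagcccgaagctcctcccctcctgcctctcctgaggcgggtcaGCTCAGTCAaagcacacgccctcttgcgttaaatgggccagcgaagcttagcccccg
Srxn1, chr2:152105274-152105523, plus strand: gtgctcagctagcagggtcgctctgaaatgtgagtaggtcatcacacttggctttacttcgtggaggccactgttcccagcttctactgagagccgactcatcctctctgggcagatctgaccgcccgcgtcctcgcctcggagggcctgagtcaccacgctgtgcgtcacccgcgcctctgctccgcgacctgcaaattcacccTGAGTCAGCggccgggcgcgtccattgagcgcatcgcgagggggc
Pgd, chr4:149166706-149166955, minus strand: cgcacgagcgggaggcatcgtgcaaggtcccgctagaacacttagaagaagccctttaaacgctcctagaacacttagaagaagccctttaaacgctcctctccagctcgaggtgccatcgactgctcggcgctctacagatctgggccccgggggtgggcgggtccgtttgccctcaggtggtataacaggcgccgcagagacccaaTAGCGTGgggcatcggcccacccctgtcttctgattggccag

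Counted by gene, with a match in any window of the gene, the form TGACNNNGC was in 2 of the 9 higher genes (22.2%), G6pdx and Pparg, in 8 of 28 NRF2 list genes with a window (28.6%) and in 3112 of 27025 genes (11.5%). The form TNGCGTG was in 1 of 9, 3 of 28 (10.7%) and 1287 genes (4.76%). Its match among the 9 was in Pgd, and the windows of Tiparp and Cyp1b1 held none. The form TGANTCAGC was in 1 of 9 (11.1%), 4 of 28 (14.3%) and 317 genes (1.17%). That 1 gene is Srxn1, whose window led to the form, and it is also among the 4. These 2 shares therefore cannot be set against that of all genes. A match describes letters in the window, and no match says only that the letters are not in these bases.

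Genes that handle cysteamine and cysteine were listed for their link to the drug. Ctns, the lysosomal cystine transporter that is defective in cystinosis, was at 8.62, 8.71 and 8.65 after cysteamine and at 8.74, 8.69 and 8.60 in vehicle. Ado, the enzyme that oxidizes cysteamine to hypotaurine, had a log2 fold change of -0.03 against vehicle, and Vnn1, which releases cysteamine from pantetheine, had 0.26 (adjusted p = 0.12, limma). Of 25 genes of this metabolism tested, Slc1a1 and Ethe1 rose and Pank3 fell against vehicle, where 7.83% of all tested genes were called. None was called against the mean of the slot partners, where 0.119% of all genes were, so a count of 0 says nothing about this list. The neurotrophin gene Bdnf had 0.11 against vehicle and -0.06 against the partners, the chaperone gene Dnajb2 0.00 in both, and the transglutaminase gene Tgm2 -0.02 and -0.01. None of the 3 was called.

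For the other gene groups, counts are to be read against 2.33% of all tested genes called higher against vehicle and 0.119% called against the mean of the slot partners, a share at which a count of 0 says nothing about a list of this size. Of 78 cytosolic ribosomal protein genes, 12 rose against vehicle with a median of 0.222, and none was called against the slot partners, where the median was 0.0607. Their mean level was between 11.72 and 12.11 in the vehicle samples, a wider range than the 12.08 to 12.19 of cysteamine. Of 20 p53 targets, 4 rose against vehicle, with Cdkn1a at 0.37 and Mdm2 at 0.32, and none against the partners. Of 25 sterol synthesis genes none was called in either comparison, and the medians were 0.0779 and 0.14. Of 29 interferon-stimulated genes 1 rose against vehicle, a share near that of all genes, with a median of 0.00859, and none was called against the slot partners, with a median of -0.427. Their mean level was between 8.98 and 9.28 after cysteamine, 9.04 and 9.30 in vehicle, 9.42 and 9.71 with nicotinamide and 9.42 and 9.79 with nortriptyline, so cysteamine overlapped vehicle and lay below both partners.

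**Figure D4:**
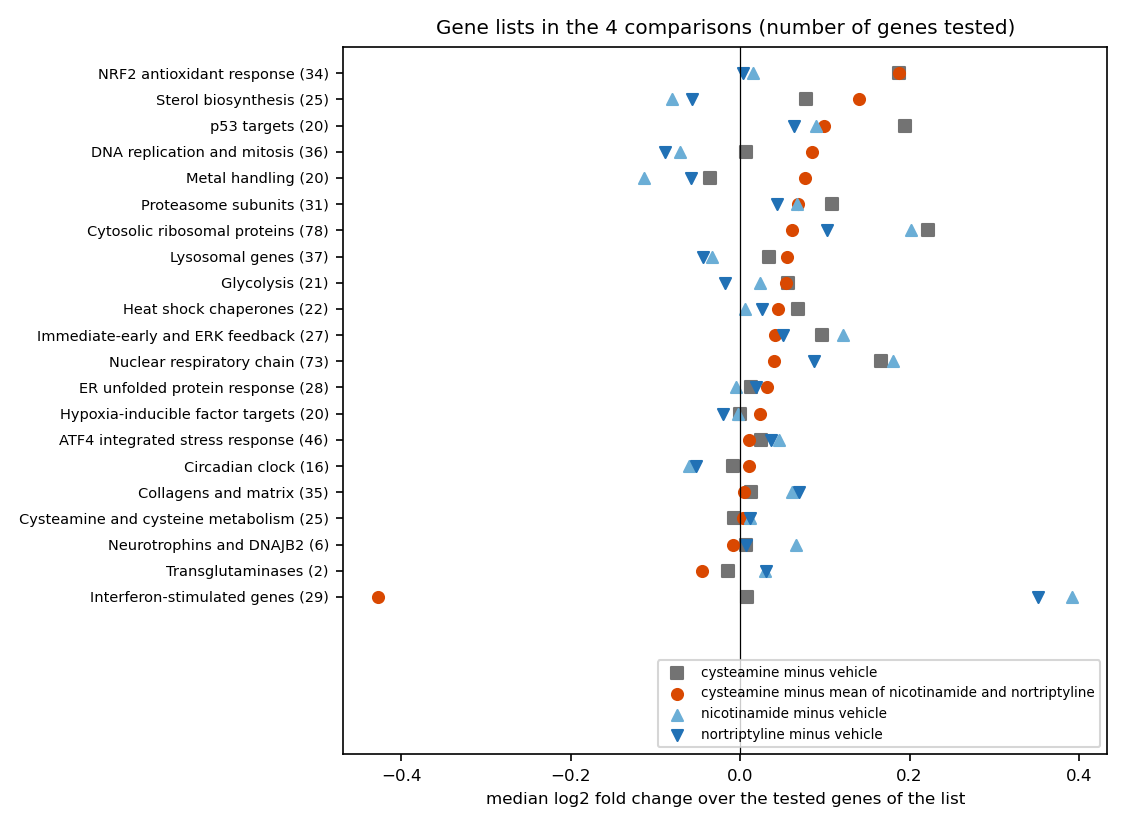
Median log2 fold change (x axis) over the tested genes of each gene list (number in parentheses) in 4 comparisons. The NRF2 list is at 0.188 in both cysteamine comparisons, and the interferon list is at -0.427 against the slot partners and 0.00859 against vehicle.

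Over all 16 conditions of the series, Nqo1 was highest after cysteamine, which was called higher than each of the other 15, including vehicle in STHdhQ7 cells. The comparison with every other condition was chosen after the data were seen. The next level of Nqo1 was 10.59 with sodium butyrate. Tiparp, Cyp1b1, Pgd and G6pdx also had their highest mean after cysteamine, which was called higher than 12, 11, 10 and 10 of the 15 conditions. For each of them cysteamine was not called higher than the next condition. Prl2c2 and Esd were higher in other conditions, at 8.29 with meclizine and 11.72 with diacylglycerol kinase inhibitor II. So were Pparg, at 8.66 with pizotifen, and Gsta1/Gm3776, at 2.37 with meclizine. Srxn1 after cysteamine ranked 6 of the 16, below 9.86 with meclizine.

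**Figure D5:**
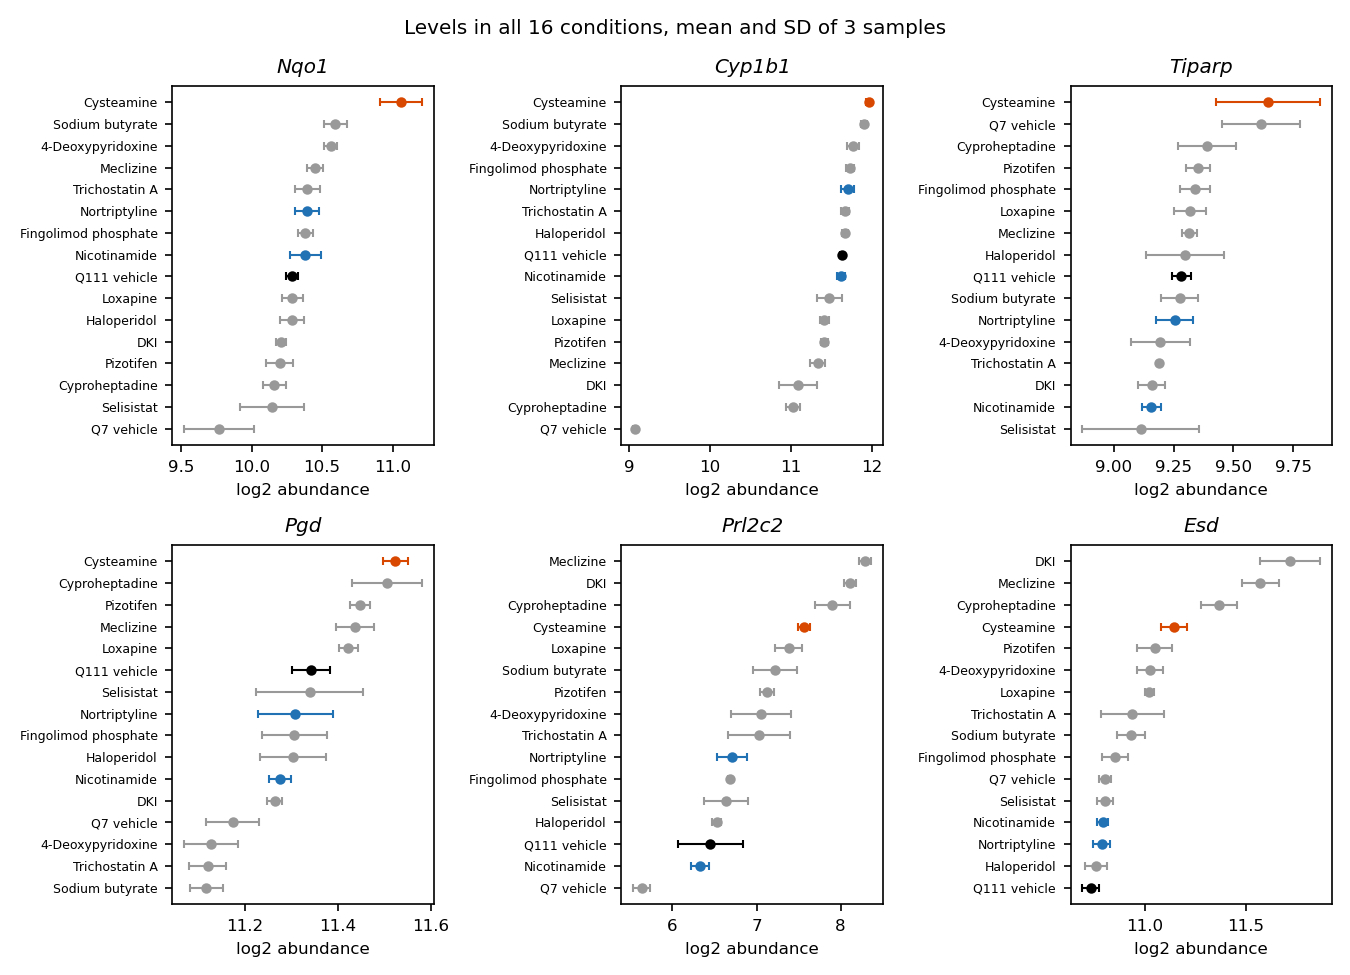
Log2 abundance (x axis, its range set per gene) of 6 genes in all 16 conditions, as the mean and SD of 3 samples, ordered by mean. Cysteamine (orange) is the highest for Nqo1, Cyp1b1, Tiparp and Pgd and ranks 4 for Prl2c2 and Esd.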

How the data were processed

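RNA-Seq was analysed in 12 samples of 4 conditions, within a table of 48 samples. Trimmomatic 0.36 served the authors for trimming and RSEM for quantification against the mouse transcriptome (GRCm38), and the submitters' processing notes also name DESeq2. The deposited values are log2 abundances normalized by the authors, read as log2 from their range, and the transformation is not named. No counts were used, so depth is unknown and no counting error is given.

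Genes with a symbol and a mean of at least 1 were tested, 13409 of 18178. With limma 3.58.1 in R 4.3.3, 16 conditions and the collection day were fitted per gene over all samples (30 residual degrees of freedom, variances with a trend). P-values were two-sided and adjusted by Benjamini-Hochberg, and genes under 0.05 were called. The collection day equals the replicate number in the 12 samples and is the block. After removal of group means, same-numbered samples of 2 groups correlated between -0.343 and 0.342.

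Named genes were the calls shared by the 3 comparisons with a mean of at least 6, leading list members, the largest changes against vehicle alone, and a set of genes listed by name. Others are marked where they stand. The members and lists were chosen with earlier results of these data known. Promoter motifs were chosen after the genes were known, 1 of the 3 after a window had been read. The procedure was tested on simulated data with independent noise and no day or slot differences, so it cannot speak to slot effects. Changes were added to 200 genes with a mean of at least 6. Against the mean of nicotinamide and nortriptyline, 194 of them were called, and 17 unchanged genes were called. Alternatives were other filters, the replicate number or no day as a term, collection time, fewer samples, another scaling, no trend and leaving out each sample.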

Additional observations from a re-analysis of the deposited data

How the results depend on the processing

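Leaving out 1 sample at a time gave 171 to 1561 genes against vehicle, 2 to 4 against nicotinamide, 1 to 6 against nortriptyline, 3 to 28 against the mean of nicotinamide and nortriptyline, and 1 to 3 in all 3 comparisons. With only the cysteamine, vehicle, nicotinamide and nortriptyline samples the counts were 1655, 45, 47, 116 and 17, and without vehicle also they were 75, 122 and 202 for the comparisons with nicotinamide, nortriptyline and their mean. Without vehicle, 35, 57 and 102 of these were higher after cysteamine and 40, 65 and 100 lower. The cause of the different counts was not tested. Against nortriptyline 2 genes were called with no filter on low values, 3 with collection time as a further term and 3 with genes without a symbol, and the counts in all 3 comparisons were 2, 3 and 3. Without the replicate block 1228 genes were called against vehicle, and with the replicate number as the block 1083. For genes named in the text, 4701 values kept their direction and side of the threshold over the alternatives, 275 lost the call, 58 gained it and none reversed. The 4701 include values of genes not called in the main fit, which had no call to lose, so they do not measure how stable the calls were. Depth per sample is unknown.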
